A study of Mus musculus with 16 samples.

Results

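Of 16 libraries of mouse gonadal fat, 6 held the epididymis transcript Crisp1 at 300 CPM or more, and they are described here against the other 10. CPM is the count of a gene scaled to the total of its library, so that each library sums to the same total, computed from the deposited counts. The libraries were chosen by that 1 level, so what separates them from the other 10 is a description of what moved together with Crisp1 and not a test. Crisp1 stood at 443 CPM in the lowest of the 6 libraries (Sham_Veh4) and at 49.6 CPM in the highest of the 10 (Sham_SHU2), so no library lay between these values. Sham_Veh4 and Sham_Veh3 (458 CPM) were the nearest above the threshold. The 6 libraries were VX_SHU4, VX_Veh4, Sham_SHU3, Sham_SHU4, Sham_Veh3 and Sham_Veh4.

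The study crossed 2 surgeries with 2 infusions in lean male C57BL/6J mice on chow, aged 16 weeks, with 4 libraries of polyadenylated RNA in each group. VX_SHU and VX_Veh mice had their vagus nerve cut below the diaphragm (sDVX), and Sham_SHU and Sham_Veh mice had a sham operation. After 4 weeks, minipumps delivered SHU9119, a peptide that blocks melanocortin receptors, at 1 nmol per day into the brain ventricles of the SHU groups for 2 weeks, and vehicle into those of the Veh groups. All mice ate the same calories during the infusion, so the groups shared the diet, the pump and an operation. The series asks how brain melanocortin receptors and the vagus nerve act on fat. Nothing in the labels ties a library to its own mouse, so any p-value here covers the spread among libraries, which may be technical. Library totals were 20425295 to 30889052 counts, with 18227 to 20253 genes detected per library, and a floor of 3 counts corresponded to 0.0971 to 0.147 CPM, for counting error only.

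The gonadal fat pad of male mice is attached along the epididymis, the coiled duct in which sperm mature between the testis and the vas deferens. Its principal cells secrete proteins that coat the sperm, among them cysteine-rich secretory proteins, protease inhibitors, beta-defensins, lipocalins and ribonuclease family members, and many of these genes depend on androgen. Secretion differs along the duct: in mice, lipocalins such as Lcn8 and Lcn9 and the peroxidase Gpx5 mark the initial segment and the caput at the testis end. Clear cells acidify the lumen with a proton pump, and basal cells lie under the epithelium.

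The 4 genes that mark these libraries lie on 4 chromosomes of mm10: Crisp1 on chromosome 17 from 40293758 to 40319207, Adam7 on chromosome 14 from 68497336 to 68533689, Ces5a on chromosome 8 from 93499063 to 93535879, and Wfdc10 on chromosome 2 from 164656046 to 164657368. Crisp1 encodes a sperm-coating protein, Adam7 a membrane protein that is passed to sperm, Ces5a a secreted carboxylesterase, and Wfdc10 a small protein of the WAP type, a fold found in protease inhibitors. The 250 bases before the start site of 3 of them, from RefSeq for GRCm38.p6 (the build also called mm10), are given because these genes from different chromosomes were high in the same 6 libraries. Each is written 5′ to 3′ along the gene: Crisp1 from chr17:40319208-40319457, minus strand, Ces5a from chr8:93535841-93536090, minus strand, before a transcript start that lies inside the gene span given above, and Wfdc10 from chr2:164655796-164656045, plus strand. Capitals mark TATAAA, the TATA box letters, in Crisp1 and AGAACA, a half-site letter string of steroid receptor elements, in Ces5a.
Crisp1: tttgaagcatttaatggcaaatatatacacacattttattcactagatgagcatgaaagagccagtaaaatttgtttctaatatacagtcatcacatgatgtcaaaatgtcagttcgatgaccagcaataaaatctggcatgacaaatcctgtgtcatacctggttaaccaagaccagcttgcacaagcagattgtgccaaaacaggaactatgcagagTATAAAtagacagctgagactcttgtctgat
Ces5a: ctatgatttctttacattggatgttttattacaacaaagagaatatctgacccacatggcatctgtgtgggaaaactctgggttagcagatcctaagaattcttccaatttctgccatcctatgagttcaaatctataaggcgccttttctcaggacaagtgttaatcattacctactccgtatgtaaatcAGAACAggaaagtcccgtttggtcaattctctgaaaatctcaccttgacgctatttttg
Wfdc10: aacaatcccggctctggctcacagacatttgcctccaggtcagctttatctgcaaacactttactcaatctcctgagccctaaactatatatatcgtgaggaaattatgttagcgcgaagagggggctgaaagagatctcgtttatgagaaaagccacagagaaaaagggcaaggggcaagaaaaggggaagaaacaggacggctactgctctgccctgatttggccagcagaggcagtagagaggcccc

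TATAAA began at position −31 of Crisp1 and AGAACA at position −59 of Ces5a, counted back from the start site of each window, and the Wfdc10 window held neither on either strand. Both strings were searched on both strands in the same 250 bases of every gene. Of 97 genes in which all 6 libraries lay above all 10 and the log2 fold change exceeded 5, 72 had a promoter in the table. AGAACA was present in 24 of these 72 (33.3%), against 11.7% of the 13116 promoters of tested genes and 16.2% of all 27025 promoters in the table. TATAAA was present in 12 of the 72 (16.7%), against 7.45% of the promoters of tested genes and 13.0% of all in the table. Some of the 97 genes belong to the same gene families, whose likeness in sequence was not measured, and a match of letters is not a binding site.

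Crisp1 reached 8355 CPM in VX_SHU4, 7754 in VX_Veh4, 1299 in Sham_SHU3, 2468 in Sham_SHU4, 458 in Sham_Veh3 and 443 in Sham_Veh4. In the 10 libraries it had a lowest value of 0.249 CPM (Sham_Veh1), a median of 5.78 and a highest value of 49.6 (Sham_SHU2). The 6 libraries thus differed among themselves by 18.9-fold, with both sDVX libraries highest and both Sham_Veh libraries lowest, and none of the 10 was at 0. Crisp1 in the 10 rested on 6 to 1418 counts per library, so the division is between much and little of this transcript rather than between presence and absence.

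Adam7 had a lowest value of 87.8, a median of 421 and a highest value of 2034 CPM in the 6 libraries, against 0.489, 2.64 and 14.6 CPM in the 10. Ces5a had 80.5, 341 and 1492 CPM in the 6, against 0.0830, 1.76 and 6.25 in the 10. Wfdc10 had 20.2, 87.9 and 632 CPM in the 6, against 0.0845, 0.416 and 2.01 in the 10. Every library of the 6 was above every one of the 10 in all 3 genes, as in 165 of 16682 genes tested (0.989%). The 3 genes were chosen as markers with earlier results of these data known, so their separation is a description. The log2 fold change of the 6 over the 10, fitted with the study group as a block in edgeR, was 8.21 ± 0.931 (SE) for Crisp1, 7.81 ± 0.872 for Adam7, 8.62 ± 0.315 for Ces5a and 8.70 ± 0.561 for Wfdc10. In bulk tissue, more cells of a type and more RNA per cell cannot be told apart.

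**Figure D1:**
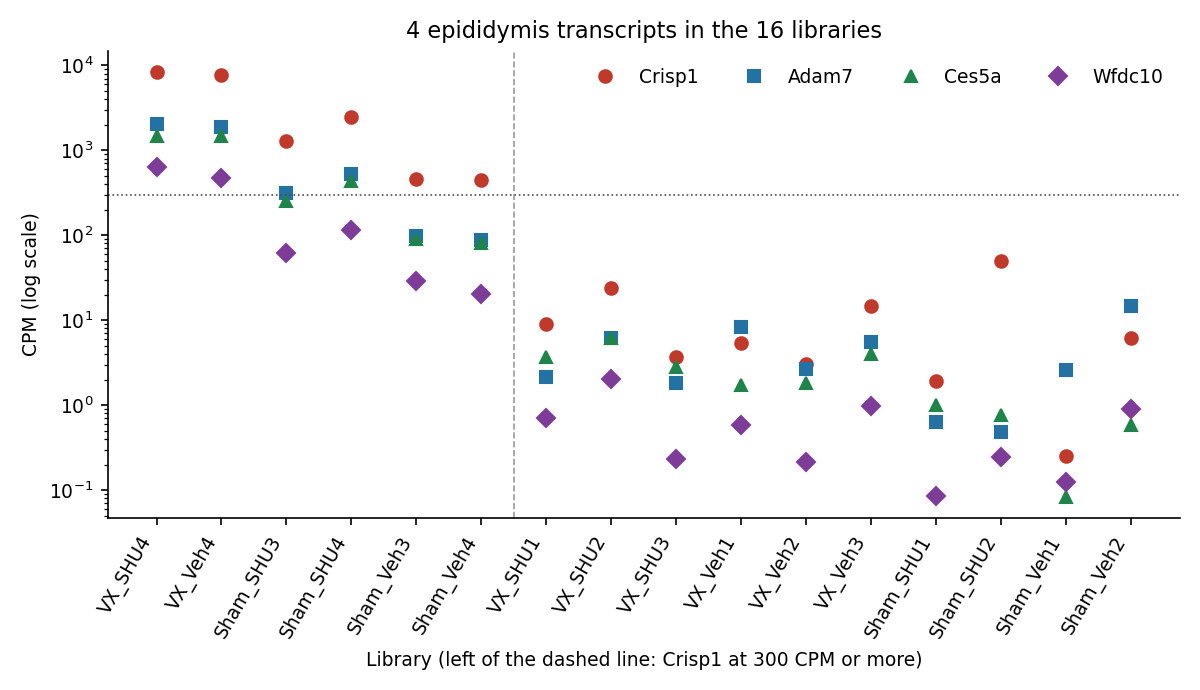
Level of Crisp1, Adam7, Ces5a and Wfdc10 in each of the 16 libraries (CPM, log scale; 1 point per gene and library), with the 6 libraries left of the dashed line and the threshold of 300 CPM dotted. VX_SHU4 and VX_Veh4 were highest in all 4 genes, and Sham_SHU2, the highest of the 10 in Crisp1 at 49.6 CPM, had 0.489 CPM of Adam7.

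The 6 libraries were spread over all 4 study groups but unevenly over the replicate numbers. The 6 comprised 1 of 4 VX_SHU, 1 of 4 VX_Veh, 2 of 4 Sham_SHU and 2 of 4 Sham_Veh libraries. By replicate number, 0 of 4 libraries numbered 1 and 0 of 4 numbered 2 were among them, 2 of 4 numbered 3 and 4 of 4 numbered 4. The labels do not say what the numbers stand for, and whatever they stand for overlaps with the 6 libraries.

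Over all genes tested, the 6 libraries differed from the 10 mainly upward. With edgeR's quasi-likelihood test and an adjusted p under 0.05, 458 of 16682 genes were called higher (2.75%) and 29 lower (0.174%). In 165 genes (0.989%) all 6 libraries lay above all 10, and 163 of these were among the 458. In 6 genes (0.036%) all 6 lay below all 10. Of the 458, 112 had a log2 fold change above 5, 254 between 1 and 5 and 92 under 1. Of the 29 called lower, 25 had a log2 fold change nearer to 0 than −0.6 and the median was −0.30, so the calls in that direction were small shifts. The median over all genes tested was −0.01. These calls depended on the most extreme libraries: 205 genes were called higher without VX_Veh4, 205 without VX_SHU4 and 77 without both, while 718 were called higher without Sham_Veh3.

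The 165 genes took 2.97% of the counts of VX_SHU4, 3.03% of VX_Veh4, 0.580% of Sham_SHU3, 0.962% of Sham_SHU4, 0.276% of Sham_Veh3 and 0.264% of Sham_Veh4. In the 10 libraries they took 0.0653% to 0.0878%. These genes include some with a clear level in all libraries, such as Glb1l2 and Myh10, and their share was largest in both sDVX libraries. The 97 of these genes with a log2 fold change above 5 took 0.153% to 2.76% in the 6 and 0.00248% to 0.0120% in the 10.

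**Figure D2:**
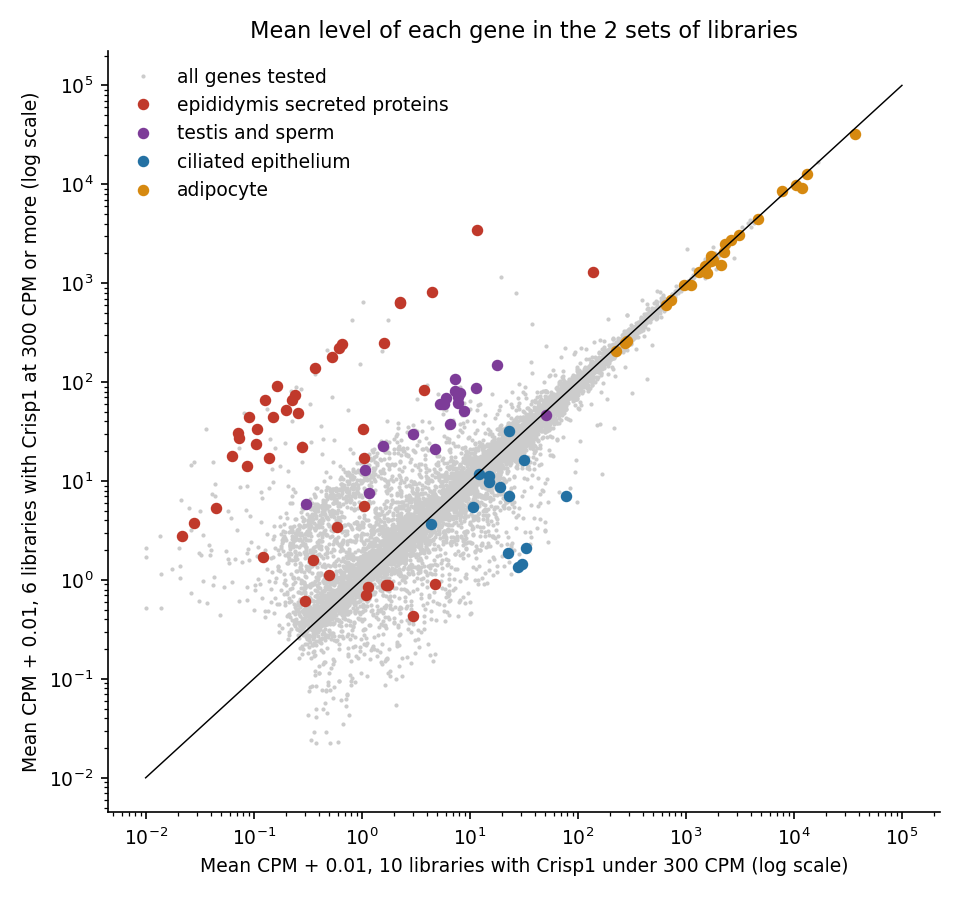
Mean CPM of each of 16682 genes in the 6 libraries (vertical) against the 10 libraries (horizontal), both on log scales with 0.01 CPM added, with 4 gene lists in colour and the line of equality. Genes of epididymal secreted proteins lie far above the line, testis and sperm genes above it, and adipocyte genes on or just under it.

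By role, the secreted proteins of the epididymis were represented across most families. A list of 70 such genes had 44 that passed the low-count filter and 31 called higher, with a median log2 fold change of 7.72 over the 44 against −0.01 over all genes. Of the 44, 38 had a positive change. The 1 tested cystatin was not called, and 1 of 2 ADAM genes was called. Of 5 tested genes grouped as other secreted or surface proteins, 1 was called and 2 were positive, with a median of −0.19. A gene expressed only in these libraries could pass the filter only through them, so the count of 31 describes the list and does not test it. The other 26 did not pass the filter. Summed over the 70 genes, the list reached 1219 to 20242 CPM in the 6 libraries and 10.1 to 679.8 CPM in the 10.

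Both cysteine-rich secretory proteins were called higher, with Crisp4, a second sperm-binding member, at 2.36 to 35.9 CPM in the 6 and 0 to 0.511 CPM in the 10. Of 12 protease inhibitors of the WAP and Kunitz types, 10 were tested and 9 called higher. Wfdc16 had a lowest value of 30.8 and a highest of 626 CPM in the 6, against 0.0349 and 4.90 CPM in the 10, and Spint3, a Kunitz-type gene, had 10.3 and 239 CPM against 0 and 0.647. Eppin, which encodes a sperm-surface protease inhibitor, had 7.36 and 86.2 CPM in the 6, against 0 and 4.06 in the 10 (log2 fold change 5.53 ± 0.696, SE). Among the Kazal-type inhibitors, Spink8 (log2 fold change 8.16 ± 0.697) and Spink10 (8.75 ± 0.543) were both called, and Spink8 with 101 to 1630 CPM in the 6 was the fourth of the list by mean CPM.

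Of 26 beta-defensins, small cationic peptides that bind sperm and microbes, 16 were tested and 11 called higher. Defb28 had the highest level of them, 32.4 to 597 CPM in the 6 and 0 to 2.33 CPM in the 10. Defb22, which in mice coats the sperm surface, had 37.7 CPM in VX_SHU4, 109 in VX_Veh4, 24.7 in Sham_SHU3, 67.8 in Sham_SHU4, 45.7 in Sham_Veh3 and 10.9 in Sham_Veh4, and at most 1.58 in the 10. It was higher in Sham_Veh3 than in VX_SHU4, against the order of Crisp1. Beta-defensin and WAP genes lie in clusters of related genes. Counting could have moved reads between neighbours, which was not tested, and single values within a family are uncertain.

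Lcn12 was the 1 lipocalin of 6 that was tested, at 1.30 to 63.8 CPM in the 6 and 0 to 1.13 CPM in the 10. Of 5 genes of the ribonuclease family, Rnase9, Rnase11 and Rnase12 were called higher, with Rnase12 at 11.4 to 176 CPM in the 6 and 0.117 to 0.421 CPM in the 10. Bsph2, a binder of sperm protein type found in seminal fluids, had 6.74 to 87.1 CPM against 0 to 0.453. Cuzd1, a secreted protein gene, was the second of the list by mean CPM in the 6 libraries (203 to 2989 CPM) and was not called, since it also stood at 587 CPM in VX_Veh1 and at 114 to 211 CPM in 5 more of the 10 libraries. In VX_Veh1, Cuzd1 alone made up most of the list's sum of 679.8 CPM, and the list's highest sum in the 10 is therefore not a sum of the Crisp1 type.

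The genes of the testis end of the duct went different ways in the 6 libraries. A list of 17 such genes, for the initial segment and caput, summed to 326 to 4996 CPM in the 6 and 3.89 to 598 CPM in the 10, with 7 tested and a median log2 fold change of 3.09. Cuzd1, Adam7 and Rnase9, which are also in the list of secreted proteins, made up most of that sum in the 6, and of these Adam7 and Rnase9 were the 2 members called higher. Other members were low: Lcn9 stood at 0 to 0.0378 CPM, Lcn8 at 0 to 0.227 CPM, and Lcn10 and Cst11, a cystatin of the same region, were at 0 counts in all 6, which allows up to 0.113 to 0.144 CPM per library. For the 3 cystatins the sum was 15.4 CPM in Sham_SHU3, 38.1 in Sham_Veh4 and 0 to 0.775 in the other 4 of the 6. Gpx5 reached 14.5 CPM in VX_SHU4 and 3.52 CPM in VX_Veh4, and 0 to 0.151 CPM in the other 4. Sham_Veh2, which was not among the 6, held Gpx5 at 26.7 CPM, Lcn8 at 17.9, Lcn9 at 9.94, Adam28 at 9.39, Rnase10 at 8.17 and Spag11b at 5.15 CPM, with Crisp1 at 6.13.

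Of the 15 genes with the largest positive changes, 7 were in the list of epididymis secreted proteins. The largest in this fit was that of Pate6, of a family of small secreted Ly6-type proteins, at a log2 fold change of 10.42 ± 0.764 (SE), with 140 CPM in VX_SHU4, 58.3 in VX_Veh4 and 0.343 to 1.96 in the 4 sham libraries of the 6, against 0 to 0.0845 CPM in the 10. Its fitted change was 5.26 without VX_SHU4 and VX_Veh4. Serpina16, of the serpin family, had 67.9 to 1596 CPM in the 6 and 0.0699 to 4.21 in the 10. Ltf, which encodes the iron-binding protein lactoferrin, had 889 CPM in VX_SHU4, 1085 in VX_Veh4, 209 in Sham_SHU3, 292 in Sham_SHU4, 12.0 in Sham_Veh3 and 61.5 in Sham_Veh4, and at most 3.24 in the 10. Pnmt, which methylates noradrenaline, had 1.12 to 39.7 CPM in the 6 and 0 to 0.0979 in the 10. The other 11 of the top 15 were Defb9, Odam, Defb11, Defb2, Defb40, Spint3, Defb38, Ly6f, Wfdc6b, Defb28 and Wfdc13, with log2 fold changes from 8.91 to 9.94. Fold changes of this size rest on few counts in the 10 libraries, from 4 counts in all for Defb9 to 282 for Serpina16.

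A few genes with a clear level in all libraries also separated the sets. Pgap2, which remodels the lipid anchor of GPI-linked proteins, had 47.9 to 234 CPM in the 6 and 32.9 to 42.8 CPM in the 10 (log2 fold change 1.65 ± 0.267). Acot9, an acyl-CoA thioesterase, had 59.3 to 113 CPM against 39.8 to 58.7 (0.69 ± 0.144), and Myh10, a non-muscle myosin heavy chain, had 78.2 to 98.1 CPM against 45.6 to 73.7 (0.47 ± 0.0877). Glb1l2 had 537 to 667 CPM in the 6 and 285 to 504 in the 10, and Foxk2 had 56.2 to 64.1 against 48.4 to 54.9. These last 2 were not called, although their sets did not overlap.

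Part of the 165 genes lay close together on the chromosomes. With a gap of up to 500000 bases allowed, 53 of them fell in 16 clusters of at least 2 genes, and 4 clusters held 4 or more, while 112 genes lay alone. Not every cluster was of 1 family, as Ap3b2 beside BC048679 on chromosome 7. The largest, on chromosome 2 from 164214454 to 164687706, held 10 of the 165 among 21 tested genes, all of the WAP and Kunitz type: Wfdc15b, Spint3, Wfdc6a, Eppin, Wfdc6b, Wfdc16, Wfdc9, Wfdc10, Wfdc11 and Wfdc13. Of the beta-defensin clusters on chromosome 8, that from 18974914 to 19195309 held 6 of 6 tested genes and that from 21776555 to 21906432 held 5 of 5. A cluster on chromosome 9 from 35611800 to 35790112 held Pate1, Pate2, Pate3 and Pate6, which were all 4 of its tested genes. Chromosome 2 carried 17.0% of the 165 genes against 7.77% of those tested, and chromosome 8 carried 10.3% against 5.35%. Each span was bounded by its outermost members of the 165, and genes that failed the filter were not counted. A gene expressed only in the 6 libraries could pass the filter only through them. The shares of tested genes in the clusters and chromosomes are therefore descriptions and not tests.

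Within the 6 libraries, Ces5a and Adam7 kept nearly fixed proportions to Crisp1 while the level of Crisp1 changed 18.9-fold. The ratio of Ces5a to Crisp1 in CPM ranged from 0.174 to 0.195, and that of Adam7 to Crisp1 from 0.198 to 0.243. Of 49 genes with all 6 above all 10, a log2 fold change above 5 and an average of 20 CPM or more in the 6, 11 had a ratio to Crisp1 that varied by less than 1.5-fold, 23 by less than 2-fold and 8 by more than 5-fold, with a median of 2.04-fold. Over the 6 libraries, the log2 level of Crisp1 correlated most closely with those of Ces5a (Pearson r = 0.999), Adam7 (0.999), Spink10 (0.999), Cwh43 (0.998) and Slc35f2 (0.998) among 4231 genes that averaged 50 CPM or more. The libraries were chosen on Crisp1 and their depth is shared by all genes, so these are descriptions with 6 points each.

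Other transcripts changed their proportion to Crisp1. Defb22 stood at 0.00451 of Crisp1 in VX_SHU4, 0.0140 in VX_Veh4, 0.0190 in Sham_SHU3, 0.0275 in Sham_SHU4, 0.0996 in Sham_Veh3 and 0.0245 in Sham_Veh4, a range of 22.1-fold. Wfdc13 ranged from 0.0270 in VX_SHU4 to 0.140 in Sham_Veh3, Rnase9 from 0.00948 in VX_SHU4 to 0.0462 in Sham_Veh3, and Glb1l3, a beta-galactosidase-like gene, from 0.00401 to 0.0528 in the same libraries. The sDVX libraries were lowest in all 4 of these ratios. In the other direction, Spink5, a Kazal-type inhibitor gene, stood at 0.0234 of Crisp1 in VX_SHU4 and 0.0143 in VX_Veh4, against 0.00127 to 0.00394 in the 4 sham libraries, and Pate6 at 0.0167 and 0.00751 against 0.000728 to 0.0011. Of the 49 genes, 15 had a higher and 15 a lower ratio in both sDVX libraries than in all 4 sham libraries. VX_SHU4 and VX_Veh4 were also the 2 libraries with the most Crisp1, so the surgery and the amount of epididymis transcripts cannot be told apart here. Ltf departed in 1 library, at 0.0262 of Crisp1 in Sham_Veh3 against 0.106 to 0.161 in the other 5.

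**Figure D3:**
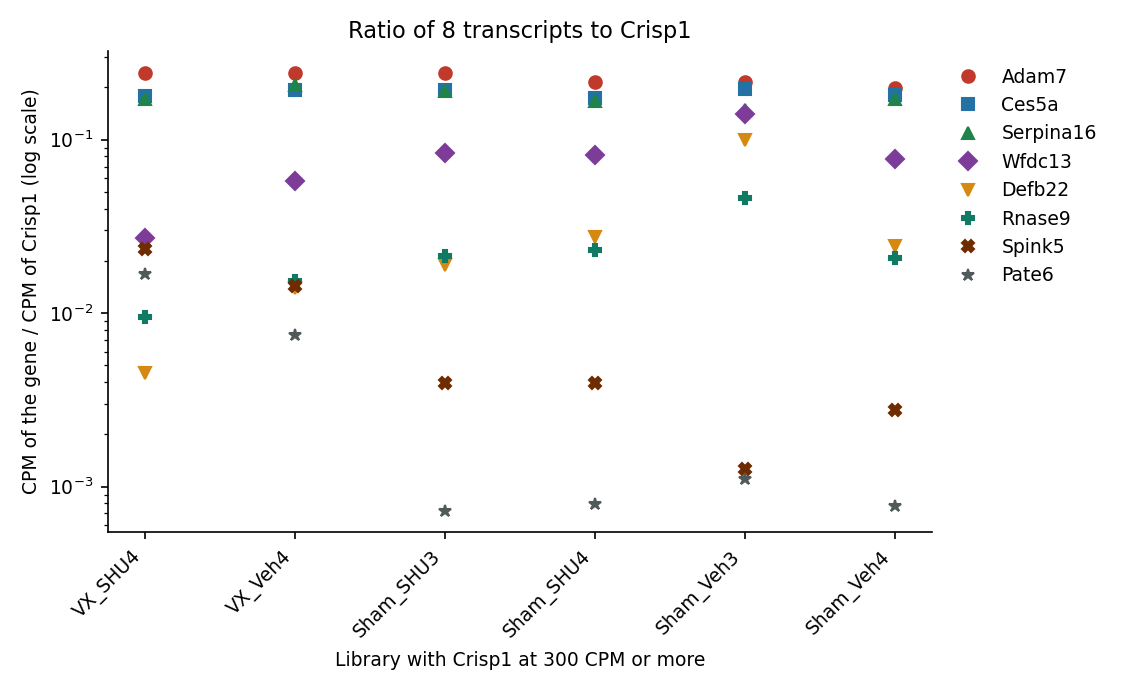
Ratio of the CPM of 8 genes to the CPM of Crisp1 in each of the 6 libraries (log scale). Adam7, Ces5a and Serpina16 lie nearly level, Wfdc13, Defb22 and Rnase9 are lowest in VX_SHU4 (Defb22 at 0.00451) and highest in Sham_Veh3 (0.0996), and Spink5 and Pate6 are highest in VX_SHU4.

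In the 10 libraries the proportions were not those of the 6. The ratio of Adam7 to Crisp1 ranged from 0.00987 in Sham_SHU2, with 14 counts of Adam7 beside 1418 of Crisp1, to 10.3 in Sham_Veh1, with 62 beside 6. Sham_Veh2 stood at 2.38, with 372 counts beside 156. In VX_SHU2 (0.260) and VX_SHU1 (0.237) the ratio was near the range of the 6, at 730 and 207 counts of Crisp1. The ratio of Ces5a to Crisp1 was 0.264 in VX_SHU2 and 0.406 in VX_SHU1, above the 0.174 to 0.195 of the 6.

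Markers of other cell types of the duct were higher in part. Of 8 tested clear cell genes 5 were called higher (list median 3.14; summed level 10.1 to 106 CPM in the 6 and 3.97 to 91.5 CPM in the 10, which overlap), led by Foxi1, the transcription factor of proton-secreting cells, at 0.736 to 18.2 CPM in the 6 and 0 to 0.118 in the 10, and Atp6v1g3, a subunit of the proton pump, at 0.990 to 22.3 CPM against 0 to 0.0845. Of 8 tested basal cell genes 4 were called (list median 1.29), while their summed level overlapped almost fully, at 212 to 343 CPM in the 6 and 178 to 341 CPM in the 10. Among the 4 was the keratin gene Krt15, at 0.388 to 23.0 CPM in the 6 and 0 to 0.881 in the 10 (log2 fold change 6.62 ± 0.797). Of 19 tested genes of epithelium in general 3 were called, among them Cldn3 and Grhl2, with a list median of 1.80. Over all tested genes, 2.75% were called higher. A gene expressed only in the 6 libraries could pass the filter only through them. These counts therefore describe the lists and do not test them.

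The common epithelial markers did not separate the sets, because part of the 10 libraries held them too. Epcam, an adhesion protein of epithelia, had 7.13 to 88.0 CPM in the 6 and 0.550 to 242 CPM in the 10, with the highest value in VX_Veh1. Genes of motile cilia were high in the same libraries: their summed level was 13.2 to 410 CPM in the 6 and 11.7 to 1454 CPM in the 10, where it was 11.7 to 233 CPM in the 5 SHU9119 libraries and 315 to 1454 CPM in the 5 vehicle libraries. Of 14 tested cilia genes 0 were called in either direction, and their median of −0.60 ran from −2.92 to 1.44 over the alternatives. The 10 named genes with the most negative changes, Fam216b, Crabp1, Iyd, Ccdc153, Tmem212, Rsph4a, Slc7a9, Nlrp6, Gmnc and Cdhr5, had log2 fold changes of −4.28 to −3.42 with standard errors of 1.83 to 2.33, and 0 of them were called. Iyd, which removes iodine from tyrosines, was among them, at 0.116 to 7.07 CPM in the 6 and 0.117 to 164 in the 10. The part of these cells in the comparison was not tested.

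Testis and sperm transcripts were high in 2 of the 6 libraries. The sum of 20 such genes was 451 CPM in VX_SHU4, 310 in VX_Veh4, 1735 in Sham_SHU3, 110 in Sham_SHU4, 55.2 in Sham_Veh3 and 3733 in Sham_Veh4, against 62.3 to 344 CPM in the 10. Prm2, a protamine that packs sperm DNA, had 263 CPM in Sham_SHU3 and 529 in Sham_Veh4. Of 19 tested genes 0 were called, with a median of 2.49, which was −0.08 without Sham_Veh4 and Sham_SHU3. Cyp11a1, a steroid enzyme of Leydig cells, was high in those 2 libraries as well, at 11.2 CPM in Sham_SHU3 and 18.4 in Sham_Veh4 and at most 1.83 elsewhere. Cyp17a1, another steroid enzyme, was higher in all 6, at 5.04 to 48.0 CPM against 0.0882 to 1.03 in the 10, and was the 1 of 7 tested Leydig and Sertoli genes that was called (list median 0.85). Testis transcripts did not follow Crisp1: VX_SHU4 and VX_Veh4 had the most Crisp1, and Sham_Veh4, with the least of the 6, had the highest testis sum.

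Genes of seminal vesicle and prostate summed to 10.2 to 73.3 CPM in the 6 libraries (median 21.9) and 9.55 to 371 CPM in the 10 (median 86.2), with a list median of −0.63. Of 9 tested genes 1 was called higher and 0 lower, and 1 had all 6 libraries above all 10. The sum was highest in VX_Veh1, which also had the highest epithelium and cilia sums. Both seminal vesicle genes named here were high in other libraries. Svs1, a seminal vesicle secretory protein, had 38.0 CPM in VX_SHU4 and 25.3 in VX_Veh4, 0 to 1.39 in the other 4 of the 6, and at most 2.85 in the 10. Svs4 stood at 28.9 CPM in VX_SHU2 and 16.8 in Sham_SHU1, both of the 10, and at 0 to 0.659 CPM in the 6.

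**Figure D4:**
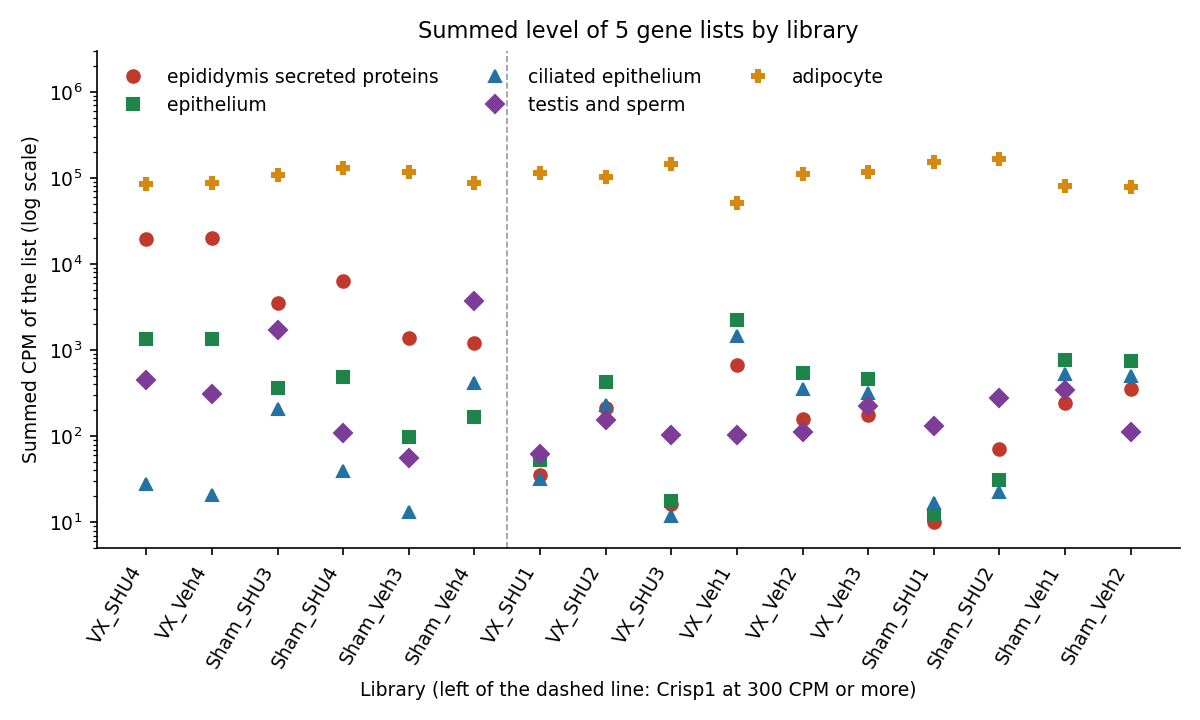
Summed CPM (log scale) of 5 gene lists in each library, with the 6 libraries left of the dashed line. The epididymis sum is at 1219 CPM or more in the 6, the epithelium and cilia sums are highest in VX_Veh1, the testis sum in Sham_Veh4, and the adipocyte sum varies by less than the others.

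Cells of the fat itself gave few calls. Of 24 adipocyte genes 0 were called in either direction (list median −0.10, from −0.40 to 0.02 over the alternatives), and their sum was 84246 to 129373 CPM in the 6 and 51015 to 164193 in the 10. Adipoq, the adipocyte hormone adiponectin, had 2199 CPM in VX_SHU4, 2234 in VX_Veh4, 2737 in Sham_SHU3, 2478 in Sham_SHU4, 3714 in Sham_Veh3 and 2923 in Sham_Veh4, within the 1355 to 3157 CPM of the 10 in 5 of the 6 libraries. Lep (log2 fold change −0.23 ± 0.280), Pparg (−0.20 ± 0.180) and Plin1 (−0.06 ± 0.193) were not called. A missed threshold does not show equal levels.

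Of the tested genes of mesothelium (11), smooth muscle (12), fibroblasts (12), endothelium (12), macrophages (16), lymphocytes (11) and blood (4), 0 were called in either direction, with medians from −0.03 to 0.25. Of 9 nerve and Schwann genes (list median 0.16) 1 was called, the adhesion gene Ncam1, at 7.64 to 77.6 CPM in the 6 and 1.14 to 19.1 CPM in the 10, while the myelin gene Mbp had 33.8 to 36.8 CPM against 31.04 to 47.0. Of 8 genes of sex steroid signalling (list median 0.13) 0 were called. Esr1, the oestrogen receptor, had 42.8 to 73.0 CPM in the 6 and 48.1 to 406 CPM in the 10. Esr1 was highest in VX_Veh1, the library with the highest cilia sum. All tested genes were called higher at 2.75%, and nothing is read from the shares of these lists, since Crisp1 chose the libraries.

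**Figure D5:**
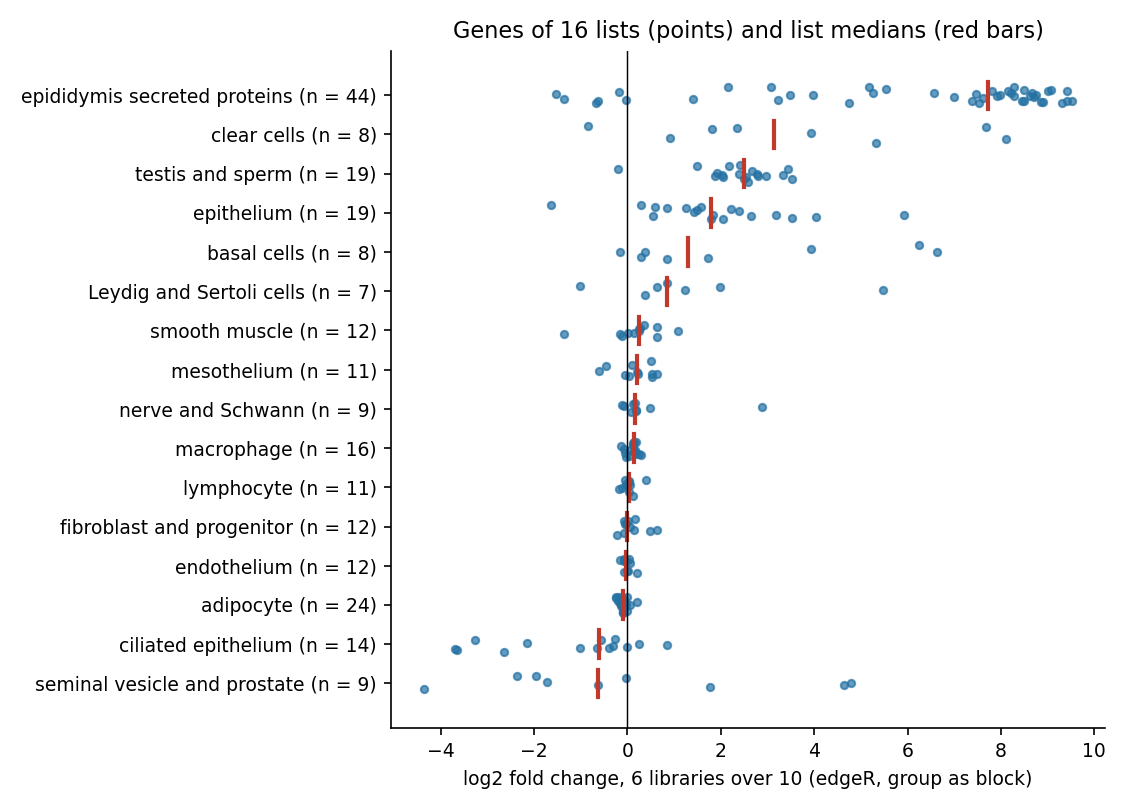
Log2 fold change of the 6 libraries over the 10 for each tested gene (points) of 16 gene lists, with the list median as a red bar and the number of tested genes in brackets. Epididymis secreted proteins have a median of 7.72, clear cells of 3.14, and the lists of fat, vessel and immune cells lie near 0.

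Whether the study's own factors changed the epididymis transcripts could be tested, since group labels were not used to choose the libraries. The sum of the 70 genes had a median of 142 CPM in the 8 SHU9119 libraries and 516 CPM in the 8 vehicle libraries, a mean difference of −1.27 on the log2(sum + 1) scale (exact two-sided permutation within surgery, 4900 assignments, p = 0.473, adjusted p = 0.925 over 2 factors). For sDVX against sham the medians were 195 and 785 CPM and the mean difference was −0.16 (exact two-sided permutation within infusion, p = 0.925, adjusted p = 0.925). Neither passed, and the spread within each group was far larger than either difference. With Crisp1 alone the SHU9119 difference was 1.20, of the opposite sign, and without Cuzd1, a choice made after seeing the data, it was −0.23.

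The comparison of study factors depended on how the 6 libraries were handled. With the split as a term, 216 of 16682 genes were called higher (1.29%) and 52 lower (0.312%) for SHU9119 over vehicle averaged over both surgeries. Without the term 312 genes were called in all, of which 234 were among these 268. In the 10 libraries alone 1916 were called higher and 2146 lower, including 255 of the 268. In those 10 libraries the cilia sum of the SHU9119 libraries did not overlap that of the vehicle libraries, as given above, and its part in the 4062 calls was not tested. The count also rested on single libraries, with 0 calls without Sham_Veh1, Sham_SHU4 or VX_Veh3 and 1384 without Sham_SHU3.

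For sDVX over sham averaged over both infusions, 5 genes were called higher (0.03%) and 0 lower (0%) with the split as a term, and 3 of the 5 (Defb2, Wfdc6b and Ces5a) are in the list of epididymis secreted proteins. They were Pate6 (log2 fold change 6.29 ± 0.792, SE; edgeR adjusted p = 0.0149), Defb2 (3.75 ± 0.525, adjusted p = 0.0269), Wfdc6b (3.68 ± 0.514, adjusted p = 0.0269), Defb11 (3.36 ± 0.380, adjusted p = 0.0069) and Ces5a (2.88 ± 0.298, adjusted p = 0.0050). Each was highest in VX_SHU4 and VX_Veh4, the libraries with the most Crisp1, and 0 genes were called without these 2 libraries. The split term was made from Crisp1, with which these genes rose, so these p-values depend on that choice and are descriptions. For Ces5a the log2 fold change without the split term was 2.10 ± 1.85 (SE; edgeR adjusted p = 0.575). Without the split term edgeR called 0 genes (smallest adjusted p = 0.224, 2666 genes at an unadjusted p under 0.05), and in the 10 libraries alone it called 0 (1210 at an unadjusted p under 0.05), while DESeq2 with the split term called 436. In the 10, Ces5a had 1.71 to 6.25 CPM in the 6 sDVX libraries and 0.0830 to 1.01 CPM in the 4 sham libraries (log2 fold change 2.50 ± 0.533, edgeR adjusted p = 0.645). These sham levels rest on 2 to 24 counts per library. Ces5a was picked because it was among the 5 calls, and the share of all genes that separate these libraries was not computed, so nothing is read from it.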

How the data were processed

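PolyA RNA of gonadal fat was sequenced in 16 libraries, 4 per group. The table deposited by the authors holds whole-number counts per gene, with genes given by NCBI gene number. Bcl2fastq, TopHat, edgeR and the mm10 build are named, per the submitters' processing notes, without versions, while the counting tool, the annotation and the use of strand were not given in the sources used here. Symbols and coordinates came from a RefSeq table of the same build, which matched 24374 of 24454 genes, and the 80 without a match held 0.557% to 1.24% of counts. Without a known strand setting, reads of overlapping or antisense genes cannot be told apart.

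CPM was computed as counts over the column sum. The libraries with Crisp1 at 300 CPM or more were compared with the rest in R 4.3.3 with edgeR 4.0.16 (filterByExpr by group, 16682 of 21661 genes with any count; TMM; robust quasi-likelihood F test; group as block; 11 residual degrees of freedom; Benjamini-Hochberg adjusted p under 0.05). A standard error is the absolute log2 fold change divided by the square root of F. The biological coefficient of variation was 42.2% (common) and 21.3% (median gene). Since Crisp1 chose the libraries, no p is given for single genes of this comparison. The study's factors were tested in the same model, so their p-values depend on the split made from Crisp1. Genes were named by rule: the 15 largest rises and 10 largest falls with a mean of at least 5 CPM in either set, 5 that separate the sets with at least 20 CPM in the 10, the 4 marker genes, the 4 most abundant members of each list (for many lists given only through the list's counts and median), 5 genes most like Crisp1, and Adipoq, Lep, Pparg and Plin1. Further list members and genes of the ratio comparison were chosen after their values were seen. The members and lists were chosen with earlier results of these data known, and the grouping by role was made after seeing the values.

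Alternatives were dispersion without robust fitting, all genes with counts, other scaling factors, DESeq2 1.42.0, limma 3.58.1 (voom), a replicate block, no group term, Crisp1 minimums of 100 and 1000 CPM, and leaving out libraries. Scripts were tested on simulated data.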

Additional observations from a re-analysis of the deposited data

Results flagged for a closer look

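In 36 sets of 4 values (9 measures in 4 groups of libraries), 14 values lay far from the other 3 of their set, by Dixon's criterion on the gap over the range. Some libraries were flagged in several measures. Chance alone gives about 1 in 20 sets if values are independent with a normal spread. The 9 measures came from the same libraries and several move together, so the 14 cannot be set against that rate. In VX_SHU, library 4 stood apart in Crisp1 (8355 CPM), Adam7 (2034), Ces5a (1486), Wfdc10 (632) and the epididymis sum (19730.1). In VX_Veh, library 4 stood apart in Crisp1 (7754 CPM), Adam7 (1879), Ces5a (1492), Wfdc10 (472) and the epididymis sum (20242). The cilia sum stood apart in VX_SHU2 (233 CPM) and in Sham_SHU3 (208 CPM), and the testis sum in Sham_SHU3 (1735 CPM) and Sham_Veh4 (3733 CPM). The Crisp1 values follow from how the 6 libraries were chosen, since each sDVX group held 1 of them. The epididymis sum includes Crisp1, and Adam7, Ces5a and Wfdc10 rose with it, so these flags are not separate results. The rule did not use the cilia and testis sums.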

How the results depend on the processing

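Counts of genes called in the 6 libraries over the 10 were 458 higher and 29 lower. They were 435 and 15 with library totals only, 501 and 27 with DESeq2 size factors, 554 and 27 without a low-count filter, and 463 and 30 with non-robust dispersion. DESeq2's Wald test gave 913 and 188, limma-voom with sample weights 1041 and 328, and no group term 513 and 31. A Crisp1 minimum of 100 CPM chose the same 6 libraries and a minimum of 1000 CPM, with 4 libraries, gave 766 and 67. Without VX_Veh4 and VX_SHU4 the counts were 77 and 0, and without Sham_Veh4 and Sham_SHU3 589 and 17. Leaving out 1 library at a time gave 205 (VX_Veh4 or VX_SHU4) to 718 (Sham_Veh3) higher and 3 (VX_Veh4) to 137 (Sham_Veh3) lower.

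For SHU9119 with the split term the total of 268 calls was 102 without a filter, 2504 with DESeq2, 85 without VX_Veh4 and VX_SHU4, 4062 in the 10 libraries alone, and 0 to 1384 leaving out 1 library. For sDVX the 5 calls were 436 with DESeq2, 0 with no split term, 0 in the 10 libraries alone, 0 without VX_Veh4 and VX_SHU4, and 0 to 26 leaving out 1 library. The SHU9119 difference of the epididymis sum turned to 1.20 with Crisp1 alone and was −2.14 to −0.58 leaving out 1 library, and the sDVX difference was −0.96 to 0.50 and so changed sign. The cause of these shifts was not tested.

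Libraries with the same replicate number were not paired by any label: 13 of 24 pairs had a correlation of deviations over 0.1 (−0.69 to 0.68), and 5 of 16 libraries correlated best with their own number. With the replicate block the calls were 22 higher and 0 lower for the 6 libraries, 54 for SHU9119 and 0 for sDVX (2592 genes at an unadjusted p under 0.05). Numbers 1 and 2 hold none of the 6, number 4 holds no other library, and in number 3 both sham libraries and neither sDVX library are among the 6, so in that fit the split rests on the gap between sDVX and sham in number 3 set beside that gap in the other numbers.

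Of the alternative values of single genes, 969 stayed within the standard error of the fitted change and 95 moved beyond it, with 0 called values of opposite sign. Of list medians, 550 stayed within the spread between libraries and 10 moved beyond it. Low levels in the 10 libraries rest on few counts and bound no gene to zero.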
